A study of Mus musculus with 20 samples.

Results

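The RNA bound by AGO2 in hippocampal neurons was compared directly between mice that received a sponge for miR-124 (miR124sp) and mice that received a sponge for miR-125 (miR125sp). The comparison covered every 3′UTR with at least 10 counts in each of the 8 RNA immunoprecipitation (RIP) libraries, which left 8203 of 38158 annotated 3′UTRs, measured in 4 of the 20 libraries of the series. All mice were adult C57BL/6 males. In the miR124sp and miR125sp groups, an AAV5 vector injected into the hippocampus expressed GFP-tagged AGO2 and the sponge on 1 transcript, under the human synapsin promoter, so that expression was directed to neurons. A further group, miR292sp, received the same GFP-AGO2 vector with a sponge for miR-292 as a control, and sham-injected mice had no GFP-AGO2. Total mRNA was sequenced (mRNA-seq) in other mice, which received AAV5 vectors with GFP alone or GFP with the miR-124 or miR-125 sponge. Each RIP library pooled the lysate of 2 hippocampi precipitated with an antibody to GFP, and there were 2 libraries per group. The p-values therefore measure the spread between 2 pools per group. The sponge transcripts were not among the counted 3′UTRs, so that sponge expression could not be checked in these libraries.

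AGO2 is the protein of the RNA-induced silencing complex (RISC) that holds the miRNA and, guided by it, contacts mRNAs, mostly in their 3′UTRs. The contact rests largely on the seed of the miRNA, the bases near its 5′ end, and leads to lower translation or decay of the mRNA. A sponge is a transcript with several binding sites for 1 miRNA family that competes with the natural targets for it. miR-124 is the most neuron-specific of the abundant brain miRNAs, and miR-125 is a conserved family that is also found outside the brain. The study proposes that a sponge leaves its miRNA loaded in the RISC and takes the place of the natural targets there. The 3′UTRs with the matching seed site are thus those whose share in the AGO2-bound RNA is asked about. The direct comparison of the sponges asks whether the bound 3′UTRs differ by the miRNA that was targeted.

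The seeds set which 3′UTRs were counted as matches, and the members of the miR-125 family are shown because both carry the same one. The RefSeq mature sequences (GRCm38.p6) are written with bases 2 to 8, the seed, in capitals. miR-125b-5p is made from chromosomes 9 and 16 and miR-125a-5p from chromosome 17, and let-7a-5p is given as a miRNA that neither sponge was built for.
miR-125b-5p: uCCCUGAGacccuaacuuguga
miR-125a-5p: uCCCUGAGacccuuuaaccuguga
let-7a-5p: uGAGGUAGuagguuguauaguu

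A match was the 7-base complement of bases 2 to 8 on the strand of the 3′UTR: CTCAGGG for miR-125 and CTACCTC for let-7. For miR-124-3p the match was GTGCCTT. A miR-124 match was present in 1339 of the 8145 tested 3′UTRs with a sequence (16.4%) and a miR-125 match in 1326 (16.3%). For let-7 the share was 11.6%. The 28-base windows below hold matches in the 3′UTRs that the results name, with the match in capitals, on NCBIM37 and on the strand of the gene. All lie within the annotated 3′UTR of the gene named.
Fam171b, miR-124 match, chr2:83722291-83722318, plus strand: ttagtgctctgtggaaGTGCCTTtgact
Nrp1, miR-124 match, chr8:131027567-131027594, plus strand: gtcttcgtcctctcaaGTGCCTTtttgt
Ctdsp2, miR-124 match, chr10:126433576-126433603, plus strand: gggactctgctacactGTGCCTTtgtgg
4930572J05Rik, first miR-125 match, chr15:74554327-74554354, plus strand: tggggcctgcagcttaCTCAGGGacagt
4930572J05Rik, other miR-125 match, chr15:74554544-74554571, plus strand: gcacctgtcctgtcagCTCAGGGagagg
Foxk1, miR-125 match, chr5:142935690-142935717, plus strand: tgggagttctcatgaaCTCAGGGtgggt
Bhlha9, miR-125 match, chr11:76486876-76486903, plus strand: ggaaggaactaccgggCTCAGGGcagcc
Klf13, miR-125 match, chr7:71036134-71036161, minus strand: accccaccccccctttCTCAGGGatgaa
Mcl1, miR-125 match, chr3:95466888-95466915, plus strand: tttgtcttacacgtctCTCAGGGaaaaa

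The total counts were 3662634 and 2944113 in the miR124sp libraries and 3354678 and 3548420 in the miR125sp libraries, against 5072501 and 4988911 with miR292sp and 2931054 and 2417942 in sham. Levels are given as CPM, counts scaled to the size of the library after TMM normalisation, which sets each library by its bulk of 3′UTRs. The median 3′UTR differed by 0.385 on the log2 scale between the replicate miR124sp libraries and by 0.313 between the replicate miR125sp libraries. Between a miR124sp and a miR125sp library it differed by 0.336 to 0.383. Libraries of different sponges were thus about as far apart as replicates of the same sponge. The counts of replicates differed by more than sampling noise (chi-square over its degrees of freedom 14.7 for miR124sp and 10.2 for miR125sp), so that no library was a copy of another.

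The RIP libraries of the sponge groups differed in 1 named 3′UTR, that of Ttr, which was lower with miR124sp. With miR124sp, Ttr was also below both sham libraries, which had no GFP-AGO2, so that its binding to AGO2 was not shown there. In edgeR's quasi-likelihood test on all 8 RIP libraries, with Benjamini-Hochberg adjustment over the 8203 3′UTRs, none was higher and 1 was lower with miR124sp than with miR125sp at an adjusted p under 0.05 (0.0122% of those tested, for the lower direction). At an unadjusted p under 0.05, edgeR had 215 higher and 215 lower (2.62% in each direction). DESeq2 also had 0 higher and 1 lower after adjustment, and 204 higher and 253 lower before it. Set against miR292sp in the same edgeR fit, 418 3′UTRs were higher (5.1%) and 284 lower (3.46%) with miR124sp, and 97 were higher (1.18%) and 19 lower (0.232%) with miR125sp at an adjusted p under 0.05. The direct comparison of the sponges is the test of whether these effects differ. The log2 fold change of miR124sp over miR125sp had a median of 0.01, with the middle 50% of 3′UTRs between -0.24 and 0.26. The 4 libraries did not overlap in 1433 3′UTRs that were higher with miR124sp (17.5%) and in 1396 that were lower (17.0%).

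**Figure D1:**
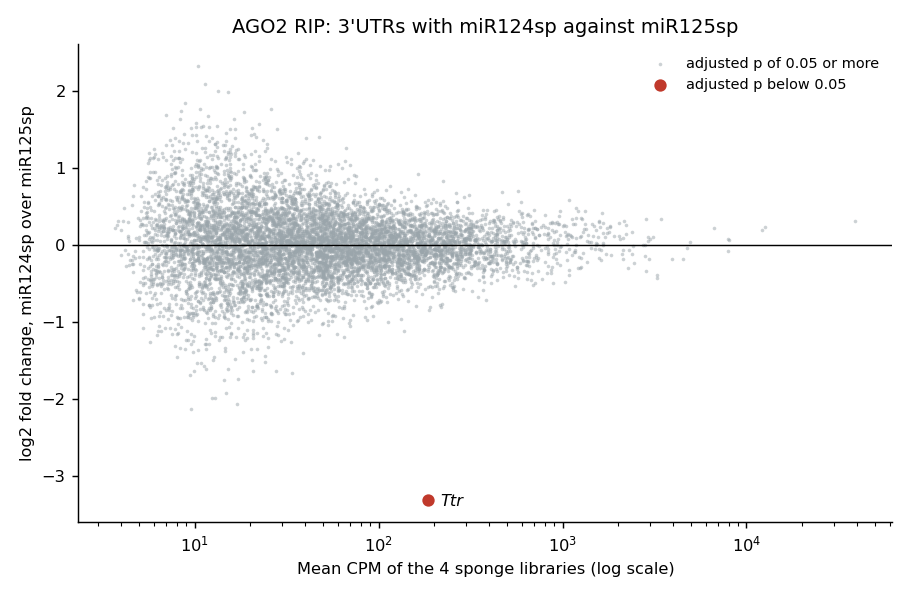
Each point is 1 of the 8162 tested 3′UTRs with a gene symbol, with its mean level (CPM over the libraries, log axis) across and its log2 fold change of miR124sp over miR125sp upwards. The points spread evenly around 0, widening at low levels, and the labelled Ttr is the 1 past the threshold, at -3.32.

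The precision differed with abundance. The 95% interval of the fold change had a median half-width of 0.81 on the log2 scale. It lay wholly within a 2-fold difference in either direction for 3514 3′UTRs (42.8%), and for 1923 of the 2051 with the highest CPM (93.8%). Of the 2051 with the lowest CPM, all up to 17.5 CPM, this held for 9 (0.439%). Such a bound is not a measure of which differences would pass the adjusted threshold. Most abundant 3′UTRs could therefore be bounded to less than a 2-fold difference between the sponges, and most scarce ones could not.

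Ttr encodes transthyretin, the carrier of thyroxine and retinol that the choroid plexus makes in large amounts. It was at 43.5 and 23.8 CPM in the miR124sp libraries and at 375 and 300.5 CPM in the miR125sp libraries, against 20.7 and 14.8 CPM with miR292sp and 248 and 65.7 CPM in sham. Both miR125sp libraries stood above all others, and both miR124sp libraries lay between those of miR292sp and sham. The log2 fold change of miR124sp over miR125sp was -3.32 (SE 0.46, 95% interval -4.28 to -2.36, adjusted p = 0.00956, edgeR), so that the level with miR124sp was 0.100 of that with miR125sp. Against miR292sp, the same fit gave 0.93 for miR124sp (adjusted p = 0.209) and 4.25 for miR125sp (adjusted p = 0.000281). These contrasts share the miR292sp libraries. The call was lost when any 1 of the 4 sponge libraries was left out, with adjusted p of 0.305 and 0.742 without miR124sp replicates 3 and 4 and of 0.168 and 0.0559 without miR125sp replicates 1 and 2 (edgeR), while the log2 fold change stayed between -3.82 and -2.96. The 3′UTR of Ttr, 586 bases long, held no match for miR-124, miR-125 or let-7.

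Relative enrichment in AGO2 binding is the level in a GFP-AGO2 library over the mean of sham, after scaling to Gapdh and its 50 neighbours above and below when genes are ranked by raw ratio. For Ttr it was 0.347 and 0.211 with miR124sp and 3.77 and 2.90 with miR125sp, against 0.359 and 0.245 with miR292sp. The 3 other markers of the choroid plexus and of ciliated ependymal cells that reached the count minimum did not pass the threshold. The chloride channel Clic6 had 27 and 21 counts with miR124sp and 51 and 62 with miR125sp (log2 fold change -1.14, SE 0.69, adjusted p = 0.921, edgeR). The ageing-suppressor Kl had a log2 fold change of 0.19 (SE 0.41, adjusted p = 0.993, edgeR) and the ciliogenesis factor Foxj1 one of -0.05 (SE 0.63, adjusted p = 0.998, edgeR). The whole list of 13 markers, Ttr included, summed to 156 and 103 CPM with miR124sp and 491 and 375 CPM with miR125sp, against 77.9 and 67.9 CPM with miR292sp and 399 and 114 CPM in sham. Without Ttr it summed to 112 and 79.5 CPM with miR124sp and 116 and 74.7 CPM with miR125sp, against 57.1 and 53.1 CPM with miR292sp and 151 and 48.8 CPM in sham. The sponge libraries then overlapped. The largest contribution to this sum was Kl, with 261 and 160 counts with miR124sp and 242 and 143 with miR125sp. Clic6, like Ttr, did not overlap between the sponges and was lower with miR124sp. Below the count minimum, Kcnj13 had 2 and 2 counts with miR124sp and 5 and 7 with miR125sp, Sostdc1 had 33 and 5 with miR124sp and 34 and 21 with miR125sp, and the ciliary gene Ccdc153 had 28 and 15 with miR124sp and 2 and 3 with miR125sp. These did not share 1 direction, and Enpp2 and Rarres2 were at 0 in all 8 libraries. In pooled tissue, fewer cells of a type and less RNA per cell cannot be told apart.

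The 11 3′UTRs with the smallest unadjusted p among those whose miR124sp libraries both lay below the miR125sp libraries did not pass the threshold (adjusted p 0.728 to 0.786, edgeR). Frat2, which binds GSK3 and promotes Wnt signalling, was at 96.1 and 77.5 CPM with miR124sp and 199 and 179 CPM with miR125sp, against 266 and 264 CPM with miR292sp and 8.63 and 16.5 CPM in sham. Its relative enrichment was 9.14 and 8.17 with miR124sp and 23.8 and 20.6 with miR125sp, against 54.9 and 52.0 with miR292sp. The libraries of each sponge were close to each other and the groups did not overlap, in a log2 fold change of -1.12 (SE 0.26, adjusted p = 0.728, edgeR). Against miR292sp, Frat2 fell with miR124sp by 1.61 on the log2 scale (adjusted p = 0.00173, edgeR), and the value for miR125sp was -0.49 (adjusted p = 0.336, edgeR). The direct comparison is the test of that difference, and Frat2 missed its threshold.

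Efna3, the axon guidance ligand ephrin-A3, was at 149 and 121 CPM with miR124sp and 248 and 238 CPM with miR125sp, against 252 and 322 CPM with miR292sp and 32.8 and 38.2 CPM in sham. The forkhead transcription factor Foxk1 was at 138 and 139 CPM with miR124sp and 265 and 221 CPM with miR125sp, against 323 and 263 CPM with miR292sp and 154 and 151 CPM in sham. 4930572J05Rik (Them6), with 2 miR-125 matches, was at 80.4 and 98.2 CPM with miR124sp and 145 and 204 CPM with miR125sp, against 230 and 208 CPM with miR292sp and 14.5 and 18.1 CPM in sham. In all 3 the miR125sp libraries lay nearer to miR292sp than the miR124sp libraries did. Their log2 fold changes were -0.85 for Efna3 (SE 0.23), -0.81 for Foxk1 (SE 0.21) and -0.97 for 4930572J05Rik (SE 0.25). A miR-125 match was present in 4 of the 12 named 3′UTRs on this side, Ttr included, and a miR-124 match in none. Of all 3′UTRs with a sequence, 16.3% had a miR-125 match and 16.4% a miR-124 match.

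Lower in abundance were Pom121, a membrane protein of the nuclear pore, Ppm1d, a phosphatase induced by p53, and Fign, a microtubule-severing ATPase. Pom121 was at 13.7 and 13.3 CPM with miR124sp and 41.9 and 42.5 CPM with miR125sp, for a log2 fold change of -1.64 (SE 0.40). Ppm1d was at 21.1 and 11.2 CPM with miR124sp and 52.1 and 50.6 CPM with miR125sp, for a log2 fold change of -1.66 (SE 0.44). Fign was at 6.55 and 6.46 CPM with miR124sp and 31.0 and 23.8 CPM with miR125sp, against 7.25 and 9.67 CPM with miR292sp and 30.7 and 48.4 CPM in sham. For Fign the sponge libraries thus divided differently, miR124sp with miR292sp and miR125sp with sham. Ppm1d and Pom121 were highest with miR125sp, above the miR292sp libraries at 46.8 and 45.0 CPM for Ppm1d and 32.9 and 35.2 CPM for Pom121. The remaining names were Gm12689, Bhlha9, 1810035L17Rik (Slirp, an RNA-binding protein of mitochondria) and Wnk2, a kinase of ion transport, with log2 fold changes between -2.13 for Bhlha9 and -1.93 for Wnk2. In 3 of these genes the value belongs to 1 3′UTR and not to the gene, since with counts summed per gene the log2 fold change was -0.11 for 1810035L17Rik, -0.41 for Fign and -1.16 for Wnk2.

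On the other side, the 12 3′UTRs with the smallest unadjusted p and higher libraries with miR124sp had adjusted p of 0.728 to 0.862 (edgeR) and log2 fold changes of 0.59 to 2.33. Edil3, a secreted integrin ligand, was at 771 and 648 CPM with miR124sp and 411 and 457 CPM with miR125sp, against 245 and 244 CPM with miR292sp and 756 and 756 CPM in sham (log2 fold change 0.71, SE 0.17). Fam171b, with 1 miR-124 match, was at 1295 and 1318 CPM with miR124sp and 867 and 874 CPM with miR125sp, against 639 and 615 CPM with miR292sp and 1588 and 1424 CPM in sham (log2 fold change 0.59, SE 0.15, and 0.36 with the Gapdh scaling). Fat3, an atypical cadherin of neurite shape, was at 318 and 254 CPM with miR124sp and 171 and 151 CPM with miR125sp, against 145 and 110 CPM with miR292sp and 298 and 226 CPM in sham (log2 fold change 0.83, SE 0.23). In these 3 the miR124sp libraries lay near the sham level and the miR125sp libraries between sham and miR292sp. The relative enrichment of Edil3 was 1.24 and 1.15 with miR124sp and 0.832 and 0.888 with miR125sp, against 0.854 and 0.811 with miR292sp, so that it was close to the level of sham in every group.

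Serinc1, a membrane protein that helps to incorporate serine into lipids, was at 663 and 493 CPM with miR124sp and 374 and 347 CPM with miR125sp (log2 fold change 0.68, SE 0.20, with 0.44 under the Gapdh scaling and 0.45 without miR124sp replicate 3). Shoc2, a scaffold of the Ras pathway, was at 224 and 204 CPM with miR124sp and 120 and 106 CPM with miR125sp (log2 fold change 0.92, SE 0.24). Both were near the miR292sp level with miR125sp, at 386 and 346 CPM for Serinc1 and 122 and 80.4 CPM for Shoc2 in the miR292sp libraries. The low-abundance members were the retinoic acid receptor Rarb at 15.5 and 19.4 CPM with miR124sp and 3.72 and 3.16 CPM with miR125sp, the ATPase Ola1 at 20.8 and 22.1 CPM with miR124sp and 4.34 and 6.32 CPM with miR125sp, and the actin-binding protein Anln at 20.8 and 27.5 CPM with miR124sp and 4.34 and 7.76 CPM with miR125sp. Tmem158 was the best bound of them, with a relative enrichment of 4.91 and 4.47 with miR124sp and 2.02 and 1.87 with miR125sp, against 10.9 and 9.64 with miR292sp. The list was completed by 2010321M09Rik (Ints14), Tmem108 and the inositol kinase Ppip5k1, with log2 fold changes of 1.41, 1.26 and 1.38. A miR-124 match was present in 1 of the 12 and a miR-125 match in none, against 16.4% and 16.3% of all 3′UTRs with a sequence. Above 4-fold enrichment with miR292sp were 2 of the 12, against 6 of the 12 on the lower side. Of all 8203 tested 3′UTRs, 2230 were above it.

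**Figure D2:**
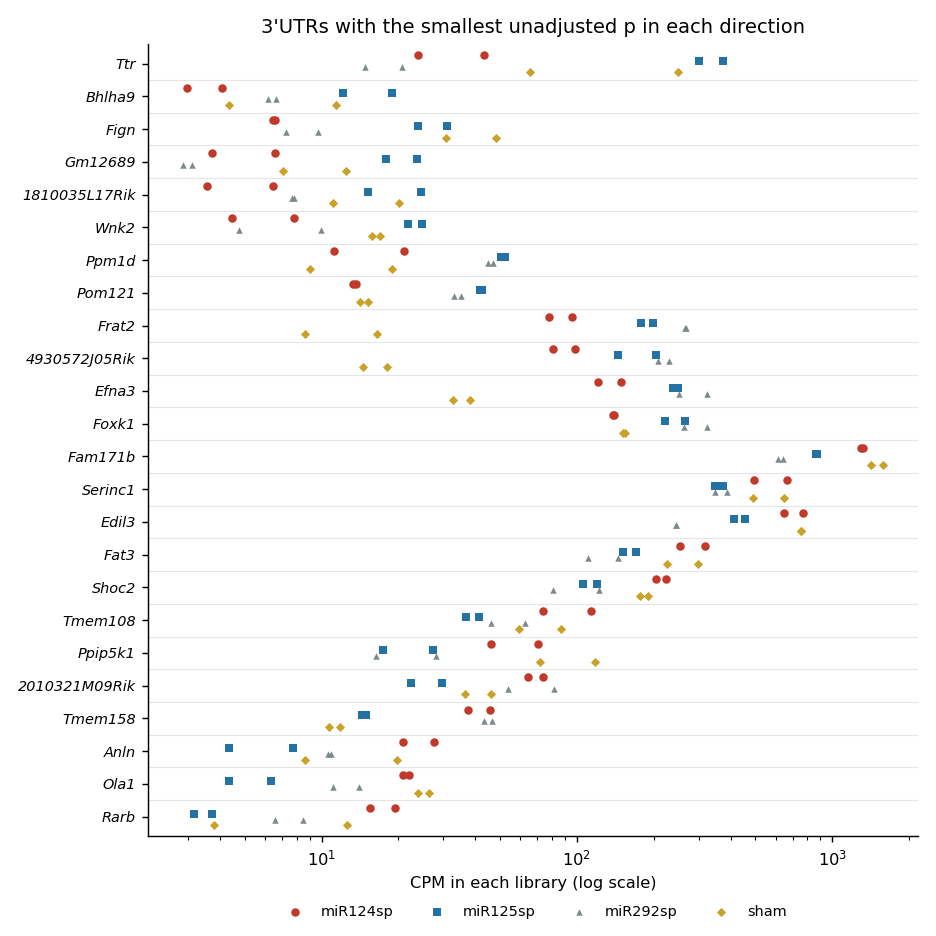
Levels (CPM, log axis) of the 24 named 3′UTRs in each library of miR124sp, miR125sp, miR292sp and sham, ordered by the log2 fold change of miR124sp over miR125sp. The miR124sp points of each 3′UTR lie wholly on 1 side of the miR125sp points, which the choice of these 3′UTRs required, and the gap is widest for Ttr.

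Taken over all lengths, the 3′UTRs with a seed match did not separate by the sponge that was used. Those with a miR-124 match and no miR-125 match (1021) had a median log2 fold change of miR124sp over miR125sp of -0.05, with 26 higher (2.55%) and 32 lower (3.13%) at an unadjusted p under 0.05. Those with a miR-125 match and no miR-124 match (1008) had a median of -0.04, with 16 higher (1.59%) and 35 lower (3.47%). With both matches (318) the median was -0.07, and with neither (5798) it was 0.03, against 0.01 over all 8145. Both single-match lists thus lay on the same side of 0, and no 3′UTR with a single match passed the adjusted threshold. The standard deviation of the median over replicate libraries was 0.056 for the miR-124 list, which covers the distance from 0. For the miR-125 list it was 0.0042, less than that distance, and its libraries did not overlap, at -0.03 and -0.02 with miR124sp and 0.02 and 0.03 with miR125sp relative to the mean of the sponge libraries. Leaving out each sponge library in turn gave medians of -0.12 to -0.01 for the miR-124 list and of -0.08 to -0.02 for the miR-125 list. The lowest value of the miR-124 list came without miR124sp replicate 3, and the values nearest to 0 without miR124sp replicate 4 and without miR125sp replicate 1, at -0.01 each.

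The 280 3′UTRs with an 8-base miR-124 match had a median of -0.10, and the 448 with an 8-base miR-125 match one of -0.05. In 4 groups by length, from the shortest, the medians of the miR-124 list were -0.17, -0.11, -0.05 and -0.02. Those of the miR-125 list were 0.02, -0.04, -0.06 and -0.03. The lists thus lay apart in the shorter 3′UTRs and not in the longer ones. In the shortest, the standard deviation over replicates was 0.045 for the miR-124 list and 0.19 for the miR-125 list. Among 3′UTRs bound above 4-fold over sham with miR292sp, the medians were -0.17 for the miR-124 list (387), -0.18 for the miR-125 list (320) and -0.13 with neither match (1364). Matches for miRNAs that neither sponge was built for gave medians of -0.07 for let-7 (944), -0.02 for miR-9 (1258), -0.02 for miR-292 (843) and 0.06 for miR-21a (689). Set against miR292sp, the miR-124 list had a median of -0.12 with miR124sp and -0.08 with miR125sp. The miR-125 list had a median of -0.10 with miR124sp and -0.06 with miR125sp, and the 3′UTRs with neither match one of 0.10 with miR124sp and 0.07 with miR125sp. These values share the miR292sp libraries and are given side by side only.

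**Figure D3:**
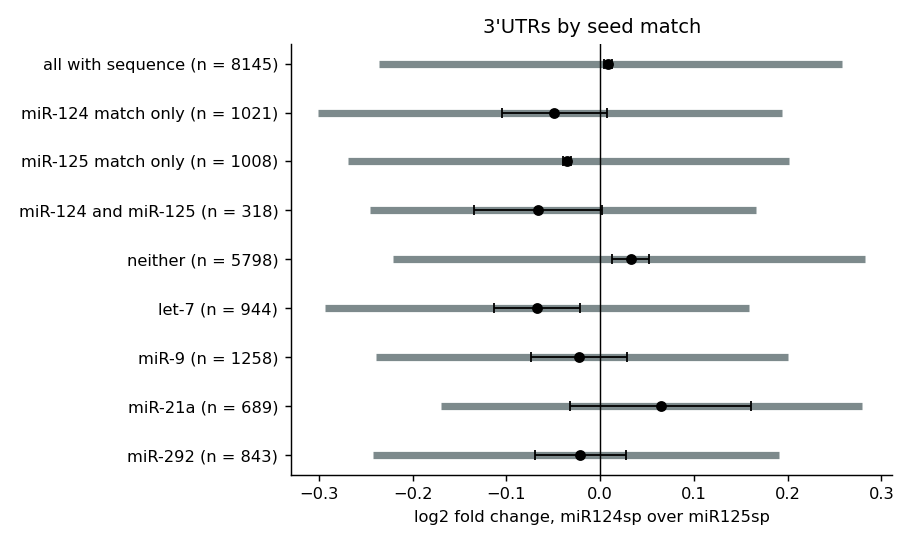
Median log2 fold change of miR124sp over miR125sp (dots, with the standard deviation of the median over replicate libraries as error bars) and interquartile range (grey bars) of the 3′UTRs with each seed match. All medians lie within 0.2 of 0 on the log2 scale, and the miR-124 list at -0.05 and the miR-125 list at -0.04 overlap almost wholly.

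The lists of well-studied miR-124 and miR-125 targets both had medians on the lower side. Of 27 3′UTRs of genes known from the literature as miR-124 targets, 1 was higher and 1 lower at an unadjusted p under 0.05, with a median of -0.12. Of 26 for miR-125, 1 was higher and 1 lower, with a median of -0.07. The libraries of the sponges did not overlap in 10 lower (37.0%) and 6 higher (22.2%) of the miR-124 list. For the miR-125 list these were 8 lower (30.8%) and 3 higher (11.5%), against 17.0% lower and 17.5% higher over all 3′UTRs. Nr4a1 of the miR-124 list, given below with the immediate early genes, was among the lower ones. Nrp1, the receptor of semaphorins, was at 670 and 530 CPM with miR124sp and 779 and 615 CPM with miR125sp (log2 fold change -0.22, SE 0.19). The phosphatase Ctdsp2, of the complex that represses neuronal genes outside neurons, was at 480 and 534 CPM with miR124sp and 619 and 640 CPM with miR125sp, against 828 and 904 CPM with miR292sp (log2 fold change -0.31, SE 0.17). Nrp1 overlapped between the sponges, and Ctdsp2 lay below miR292sp with either sponge. Mtpn, a regulator of actin capping, had a log2 fold change of 0.35 (SE 0.18).

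For miR-125, the transcription factor Klf13 was at 540 and 479 CPM with miR124sp and 621 and 628 CPM with miR125sp, against 890 and 874 CPM with miR292sp (log2 fold change -0.29, SE 0.17). Mcl1, an inhibitor of apoptosis, was at 321 and 270 CPM with miR124sp and 388 and 329 CPM with miR125sp, against 566 and 597 CPM with miR292sp (log2 fold change -0.28, SE 0.20). Both carry a miR-125 match, and both were lower with miR124sp than with miR125sp or miR292sp. Dicer1, the endonuclease that makes mature miRNAs, and the phosphatase subunit Ppp2ca had overlapping libraries, with log2 fold changes of -0.12 (SE 0.20) and 0.17 (SE 0.20). The members at an unadjusted p under 0.05 were B4galt1, a galactosyltransferase (-1.20, SE 0.41), and Dlx2, a homeobox factor (1.10, SE 0.52), among miR-124 targets, and the ligand Wnt4 (-1.25, SE 0.46) and the receptor Erbb3 (1.39, SE 0.57) among miR-125 targets. All 4 had adjusted p above 0.86 (edgeR), from 0.862 for B4galt1 and Wnt4 to 0.921 for Dlx2.

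The difference between the sponges ran with the relative enrichment of the 3′UTRs in AGO2 binding. They were divided by their relative enrichment with miR292sp over sham, a measure from libraries that are not in the comparison of the sponges. From the least to the best enriched (below 1, 1 to 2, 2 to 4, 4 to 8 and above 8), the median log2 fold change of miR124sp over miR125sp was 0.18 (941 3′UTRs), 0.12 (2456), 0.01 (2576), -0.11 (1571) and -0.26 (659). At an unadjusted p under 0.05, 54 of the 941 below an enrichment of 1 were higher and 15 lower. Of the 659 above 8, 3 were higher and 75 lower. The share over all 3′UTRs was 2.62% in each direction. Spearman's rho between the log2 fold change and the log2 enrichment was -0.31 and Pearson's r was -0.27 across the 8203 3′UTRs, which share the same libraries and are not independent. The median enrichment of the best enriched 3′UTRs was 3.39 with miR124sp and 4.73 with miR125sp. Over all 3′UTRs it was 1.29 with miR124sp and 1.47 with miR125sp, against 2.39 with miR292sp, and 230, 507 and 2230 3′UTRs were above 4-fold with miR124sp, miR125sp and miR292sp.

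The replicates were not equally far along this gradient. Relative to the mean of the 4 sponge libraries, the median level of the best enriched 3′UTRs was -0.02 and -0.25 on the log2 scale in miR124sp replicates 3 and 4, and 0.19 and 0.08 in miR125sp replicates 1 and 2. Below an enrichment of 1 it was 0.03 and 0.16 in the miR124sp libraries and -0.11 and -0.04 in the miR125sp libraries. The groups did not overlap at either end, and miR124sp replicate 3 lay nearer to the miR125sp libraries than replicate 4. Leaving out each sponge library in turn gave medians of -0.40 to -0.16 for the best enriched 3′UTRs, the lowest without miR124sp replicate 3 and the highest without replicate 4. Below an enrichment of 1 the medians were 0.09 to 0.26, the lowest again without miR124sp replicate 4. With the Gapdh scaling, which moved the median of all 3′UTRs from 0.01 to -0.22, the values ran from -0.05 below an enrichment of 1 to -0.49 above 8, so that the order was kept and the positive values were not.

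**Figure D4:**
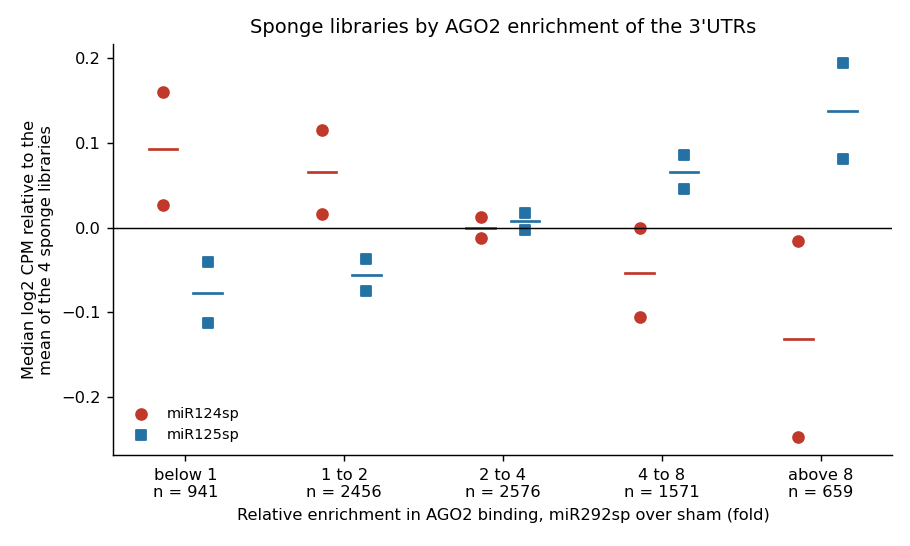
Median log2 level of the 3′UTRs in each miR124sp and miR125sp library, relative to the mean of the 4 sponge libraries, by the relative enrichment of miR292sp over sham, with a horizontal line at the mean of each pair of libraries. The miR124sp libraries lie above the miR125sp libraries below an enrichment of 1 and below them above 8.

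The share of 3′UTRs with a seed match also ran with enrichment, over 9.62%, 12.2%, 16.3%, 21.6% and 30.0% for miR-124 and 10.4%, 12.6%, 17.8%, 20.5% and 22.2% for miR-125, from the least to the best enriched. Enrichment and seed matches therefore moved together, and their separate parts in the small medians of the seed lists were not tested.

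Since the synapsin promoter directs GFP-AGO2 to neurons, markers of other cell types are given beside this gradient. Markers of astrocytes (19 3′UTRs of 17 genes) had 2 higher and 0 lower with miR124sp at an unadjusted p under 0.05 and a median log2 fold change of 0.26, which became 0.03 with the Gapdh scaling and 0.05 without miR124sp replicate 4. Their summed level was 51357 and 47025 CPM with miR124sp and 39041 and 40666 CPM with miR125sp, against 17325 and 17842 CPM with miR292sp and 67626 and 64181 CPM in sham. The largest single contribution was Slc1a2, the main glutamate transporter of astrocytes, at 45237 and 41352 CPM with miR124sp and 34011 and 35911 CPM with miR125sp, against 14768 and 15286 CPM with miR292sp and 60666 and 56818 CPM in sham (log2 fold change 0.31, SE 0.09, adjusted p = 0.862, edgeR). The order of the groups was the same in every pair of libraries, with sham highest and miR292sp lowest. Slc1a3, the other glial glutamate transporter, had a log2 fold change of 0.41 (SE 0.18). Gja1, a gap junction protein, had one of 0.33 (SE 0.31) with overlapping libraries. Not all astrocyte markers went this way. Of the 19 3′UTRs, 13 had a positive and 6 a negative log2 fold change, the lowest at -0.71. Over all 8203 3′UTRs, 4181 were positive and 4022 negative. Markers of oligodendrocytes and myelin (20 3′UTRs) had a median of 0.02, with 0 higher and 1 lower, and the 5 of microglia and the 5 of endothelial and mural cells had medians of -0.11 and 0.00 with none at an unadjusted p under 0.05. None of these 3 medians kept its sign in every fit that left out 1 library, with ranges of -0.23 to 0.19, -0.52 to 0.69 and -0.12 to 0.29. The part of RNA carried along from other cells in the gradient was not tested.

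Neuronal RNA was present in all libraries. General neuron markers, over all their annotated 3′UTRs, summed to 13910 and 13374 CPM with miR124sp and 13129 and 14295 CPM with miR125sp. The sums were 12204 and 12888 CPM with miR292sp and 13889 and 12535 CPM in sham. None of the 21 tested 3′UTRs was at an unadjusted p under 0.05 in either direction. Snap25, of the synaptic vesicle fusion machinery, was at 1645 and 1436 CPM with miR124sp and 1501 and 1514 CPM with miR125sp. Elavl4, Gria1 and Syt1 of this list were listed at 0 in every library. Markers of dentate granule cells (9 3′UTRs tested) summed in the same way to 3659 and 3248 CPM with miR124sp and 2879 and 2781 CPM with miR125sp. The sums were 2068 and 1972 CPM with miR292sp and 4068 and 3961 CPM in sham. The largest contribution was Sema5a, a semaphorin with 1 miR-124 match, at 2008 and 1724 CPM with miR124sp and 1388 and 1416 CPM with miR125sp (log2 fold change 0.41, SE 0.15). Markers of CA1 and CA3 pyramidal cells (14) and of interneurons (13) had medians of -0.03 and 0.18.

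**Figure D5:**
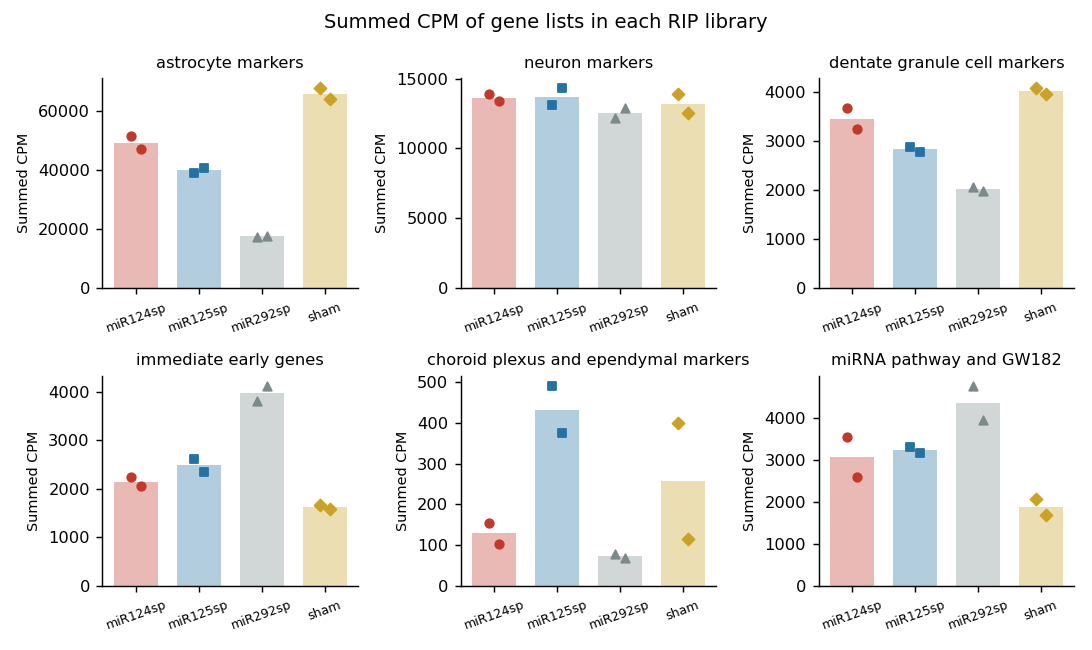
Summed level (CPM) of 6 gene lists in each library (points) of miR124sp, miR125sp, miR292sp and sham, with bars at the mean of 2 libraries. The astrocyte list is at 51357 and 47025 CPM with miR124sp and 39041 and 40666 CPM with miR125sp, between the sham and the miR292sp libraries.

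Among functional lists, immediate early genes, which neurons switch on within minutes of activity, had 0 higher and 4 lower of 31 3′UTRs at an unadjusted p under 0.05 (2.62% of all 3′UTRs in each direction) and a median log2 fold change of -0.22. The median was -0.03 without miR124sp replicate 4 and -0.43 without replicate 3. They summed to 2238 and 2057 CPM with miR124sp and 2616 and 2355 CPM with miR125sp, against 3822 and 4119 CPM with miR292sp and 1671 and 1586 CPM in sham. Arc, a postsynaptic protein of plasticity, was at 263 and 329 CPM with miR124sp and 466 and 421 CPM with miR125sp, against 653 and 1068 CPM with miR292sp and 356 and 348 CPM in sham (log2 fold change -0.58, SE 0.22, adjusted p = 0.862, edgeR). The miR124sp libraries were the lowest of the 8 for Arc. The other members at an unadjusted p under 0.05 were the transcription factor Klf2 (-1.01, SE 0.37), the kinase Sik1 (-1.19, SE 0.44) and the stress sensor Gadd45g (-0.83, SE 0.34). The orphan receptor Nr4a1, with 1 miR-124 match, was at 115 and 120 CPM with miR124sp and 167 and 157 CPM with miR125sp (log2 fold change -0.46, SE 0.22), and the main 3′UTR of Homer1 was at 208 and 231 CPM with miR124sp and 197 and 182 CPM with miR125sp (log2 fold change 0.21, SE 0.20).

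The miRNA pathway itself had none at an unadjusted p under 0.05 in 11 3′UTRs, with a median of -0.16, which was 0.01 without miR124sp replicate 4. Tnrc6b, a GW182 protein that couples AGO to decay, was at 1134 and 833 CPM with miR124sp and 1177 and 1087 CPM with miR125sp (log2 fold change -0.20, SE 0.18). Eif2c2, the gene of AGO2, was at 949 and 582 CPM with miR124sp and 693 and 620 CPM with miR125sp (log2 fold change 0.22, SE 0.25), with the miR125sp libraries inside the range of the miR124sp libraries. The 21 3′UTRs of deadenylation and mRNA decay had a median of -0.11, with 0 higher and 1 lower.

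Synaptic lists had a few members in each direction at an unadjusted p under 0.05, against 2.62% of all 3′UTRs in each direction. Of 34 3′UTRs of glutamate and GABA receptors, 2 were higher (5.88%) and 1 lower (2.94%), with a median of 0.12. Gabra5, a subunit of the GABA-A receptor, was at 1632 and 1431 CPM with miR124sp and 1158 and 1092 CPM with miR125sp (log2 fold change 0.44, SE 0.16). Of 41 of synaptic vesicle release, 2 were higher and 2 lower (4.88% each, median 0.07). Bsn, a scaffold of the active zone with 2 miR-125 matches, was at 2894 and 2626 CPM with miR124sp and 3565 and 3896 CPM with miR125sp, against 4379 and 4731 CPM with miR292sp and 1245 and 785 CPM in sham (log2 fold change -0.43, SE 0.17). The vesicle fusion ATPase Nsf was at 2301 and 2171 CPM with miR124sp and 1796 and 1864 CPM with miR125sp, against 1568 and 1505 CPM with miR292sp and 2333 and 2280 CPM in sham (log2 fold change 0.29, SE 0.14). Bsn, above its sham level in every GFP-AGO2 library, was thus on the lower side and Nsf on the higher side. Of 39 3′UTRs of potassium channels, 1 was higher and 1 lower (2.56% each). The higher one was Kcnh7, at 1130 and 1113 CPM with miR124sp and 825 and 820 CPM with miR125sp.

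The remaining lists had at most 2 members in either direction at an unadjusted p under 0.05. Of 48 3′UTRs of axon guidance genes, 2 were higher and 1 lower (median -0.06), the higher ones including the semaphorin Sema3e (0.56, SE 0.21) and the lower one being Efna3. Cholesterol synthesis and uptake (20) had 0 higher and 1 lower with a median of -0.24, the Bcl-2 family (16) had none with a median of -0.24, and insulin and PI3K signalling (35) had 0 higher and 1 lower with a median of -0.00. The unfolded protein response (18), interferon response (7) and reactive gliosis (4) had medians of -0.01, -0.04 and -0.31, with 1 lower in the interferon list. Histone lysine methyltransferases and demethylases (28) had 1 higher and a median of -0.09. When 1 sponge library was left out, the median changed sign in 12 of the 25 lists. No member of any of these lists passed the adjusted threshold, and Ttr was the 1 that did in the 25 lists.

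The total mRNA of the same genes was read in 12 other mice, 3 GFP.miR124sp mice against 3 GFP mice and 3 GFP.miR125sp mice against 3 other GFP mice. Their AAV5 vectors carried GFP without AGO2. Per the study's methods, RNA came from entire hippocampi, without the precipitation that selects RNA of neurons. The effect of miR124sp minus that of miR125sp was tested as an interaction in edgeR, which had 984 genes higher (7.42% of 13268) and 937 lower (7.06%) at an adjusted p under 0.05. Leaving out 1 mouse at a time gave 494 to 1633 higher and 611 to 1318 lower. The count of higher genes was 1633 without GFP.miR124sp replicate 9, and 494, 539, 537, 587, 613 and 632 without GFP.miR125sp replicate 9, GFP.miR124sp replicate 2, GFP replicate 15 of the miR-124 experiment, GFP.miR124sp replicate 14, GFP replicate 14 of the miR-125 experiment and GFP.miR125sp replicate 6. The count of lower genes was 611 without GFP.miR125sp replicate 9. Many total mRNAs thus differed in this interaction. Since each sponge had its own GFP mice, a difference between the GFP groups also enters it. Each effect alone had 2131 higher and 2063 lower for miR124sp (16.1% and 15.5%) and 2 higher and 4 lower for miR125sp (0.0151% and 0.0301%).

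By seed, genes with a miR-124 match alone (768) had 92 higher (12.0%) and 21 lower (2.73%) in this difference, and those with a miR-125 match alone (762) had 98 higher (12.9%) and 24 lower (3.15%). Genes with neither (4154) had 395 higher (9.51%) and 426 lower (10.3%). The medians were 0.07, 0.08 and -0.01 for the miR-124, miR-125 and neither lists. As in the bound RNA, the miR-124 and miR-125 lists lay close to each other. The genes that were higher in the mRNA difference had 686 tested 3′UTRs with a median of -0.03 in the bound RNA, those that were lower had 506 with a median of 0.05, and those not past the threshold had 5163 with a median of 0.01.

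Of the 24 named 3′UTRs, 19 had an mRNA value and 4 of these passed its threshold. Fat3 was at 156, 144 and 123 CPM in GFP.miR124sp mice against 93.9, 90.3 and 92.7 CPM in their GFP mice, and at 113, 93.5 and 95.3 CPM in GFP.miR125sp mice against 113, 128 and 118 CPM in theirs. The difference of the effects was 0.86 on the log2 scale (SE 0.12, adjusted p = 0.00133, edgeR), in the same direction as in the bound RNA. Anln differed by 0.54 (SE 0.15, adjusted p = 0.0246, edgeR), also in the direction of the bound RNA, and lost the call without any 1 of 5 of the 12 mice. Slirp (1810035L17Rik) was at 20.1, 15.5 and 16.8 CPM in GFP.miR124sp mice against 26.0, 28.2 and 24.0 CPM in their GFP mice, and at 18.4, 15.5 and 19.6 CPM in GFP.miR125sp mice against 15.2, 14.9 and 16.9 CPM in theirs (-0.75, SE 0.16, adjusted p = 0.00818, edgeR). Pom121 was at 109, 111 and 100.3 CPM in GFP.miR124sp mice against 73.7, 79.2 and 85.7 CPM in their GFP mice, and at 107, 113 and 108 CPM in GFP.miR125sp mice against 121, 105 and 115 CPM in theirs (0.48, SE 0.10, adjusted p = 0.00530, edgeR). The mRNA of Pom121 thus had the opposite direction to its bound 3′UTR. That of Slirp had the direction of the 3′UTR named, while the bound RNA summed over the gene was at -0.11 (adjusted p = 0.995, edgeR). For Pom121 and Slirp the sponge mice overlapped between the experiments and the GFP mice did not. For Fat3 neither the sponge mice nor the GFP mice overlapped between the experiments. Whether the interaction of Fat3, Pom121 and Slirp reflects the sponges or the GFP groups was not tested. Efna3, Frat2 and Fam171b had mRNA differences of 0.00, -0.07 and -0.03 (SE 0.11, 0.20 and 0.09).

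The mRNA of Ttr varied widely among the mice of each group. It was at 25.1, 39.6 and 2148 CPM in GFP.miR124sp mice against 3962, 77.2 and 1695 CPM in their GFP mice, and at 27.2, 1505 and 39.4 CPM in GFP.miR125sp mice against 1263, 46.8 and 891 CPM in theirs. Each group of 3 mice held levels under 100 and over 800 CPM, and the difference of the effects was -0.88 (SE 2.32, adjusted p = 0.843, edgeR). In the same mice and order, Clic6 was at 2.26, 2.66 and 29.9 CPM in GFP.miR124sp mice against 46.5, 5.57 and 22.8 CPM in their GFP mice, and at 2.62, 34.3 and 5.01 CPM in GFP.miR125sp mice against 25.1, 6.44 and 18.3 CPM in theirs. Clic6 was high in the mice in which Ttr was high.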

How the data were processed

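The authors deposited raw counts per annotated 3′UTR for the RIP libraries and per RefSeq transcript for the mRNA-seq. Per the study's methods, polyadenylated RNA was amplified and reads were mapped to mm9. The submitters' processing notes name STAR, edgeR and mm10, and the sources used here name no counting program and no rule for reads shared by overlapping or near-identical 3′UTRs, so that levels of such 3′UTRs are uncertain. Names, coordinates and 3′UTR sequences were taken from GENCODE M1 on NCBIM37, in which 98.0% of the 38158 3′UTRs were named, and mRNA counts were summed per symbol.

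From the counts, 3′UTRs with at least 10 counts in all 8 RIP libraries were fitted in edgeR 4.0.16 (R 4.3.3, TMM, quasi-likelihood) with the 4 groups, contrast miR124sp minus miR125sp. All p-values are two-sided. CPM are not divided by length, so that levels were not compared between genes. Enrichment was scaled to Gapdh and its 50 neighbours above and below when genes are ranked by the raw ratio of miR292sp to sham, after the study's methods (the Gapdh scaling). mRNA was fitted over 12 mice after edgeR's filter on low expression. Medians of lists are described with no test. Summed levels of lists take every annotated 3′UTR of the listed genes, also those under the count minimum. Alternatives were the Gapdh and RLE scalings, DESeq2 1.42.0, the 4 sponge libraries alone, no filter, counts summed per gene, an 8-base seed match and leaving out each library. The fits were tested on simulated data. Seed matches of miR-124 and miR-292 were read from the sponge sites in the study's methods.

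The 3′UTRs named were the 1 past the threshold, filled up to 12 in each direction by the smallest unadjusted p among those with non-overlapping libraries, and up to 4 per list by abundance. List members at an unadjusted p under 0.05, Gja1, Snap25 and Nr4a1 were chosen after their values were seen. The lists and members were chosen with earlier results of these data known.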

Additional observations from a re-analysis of the deposited data

Results flagged for a closer look

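In the mRNA-seq, the effects of the sponges differed by the interaction test in 4 of the named genes: Fat3 by 0.86, Anln by 0.54, Pom121 by 0.48 and 1810035L17Rik (Slirp) by -0.75 on the log2 scale, as miR124sp effect minus miR125sp effect. Each effect was taken against its own GFP mice, and these did not overlap between the experiments for Fat3, Pom121 and Slirp.

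Outside the tested 3′UTRs, 11 with fewer than 10 counts in some library passed the threshold when no filter was applied (19361 3′UTRs). Most rested on 1 library or on counts near 0, and fitted fold changes of 3′UTRs at 0 in a group depend on the prior count and are no bounds. Slc35f2, a membrane transporter, had 9 and 9 counts with miR124sp and 82 and 51 with miR125sp, against 60 and 66 with miR292sp and 71 and 47 in sham (log2 fold change -2.83). Cd320, a receptor for vitamin B12 uptake, had 2 and 3 counts with miR124sp and 26 and 52 with miR125sp, against 14 and 53 with miR292sp and 16 and 39 in sham (-3.83). Bcl11a, a transcription factor, had 19 and 46 counts with miR124sp and 1 and 0 with miR125sp, against 16 and 15 with miR292sp (5.78). In these 3 the counts of the sponges did not overlap, and they are raw counts of libraries of unequal depth.

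Cbln3, a cerebellin of cerebellar granule cells, had 90 and 17 counts with miR124sp and 1 and 794 with miR125sp (-2.81), and Cnpy1 had 11 and 0 with miR124sp and 0 and 154 with miR125sp (-3.71). Both were high in miR125sp replicate 2 alone, in which the hindbrain factor En2 also had 28 counts, against 0 in replicate 1. Bcl2l10 (-8.13) and Cdkal1 (-8.15) each had counts in 1 miR125sp library, 71 and 66, and 0 in both miR124sp libraries. Zcchc5 (-2.48) had 23 and 27 counts with miR124sp and 225 and 59 with miR125sp. The remaining 3 had 0 or few counts with miR125sp: Cdh8 (4.70) had 146 and 14 with miR124sp and 1 and 5 with miR125sp, Pnldc1 (5.07) 9 and 30 with miR124sp and 0 and 1 with miR125sp, and Gm5105 (7.21) 21 and 14 with miR124sp and 0 and 0 with miR125sp.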

How the results depend on the processing

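The count of 0 higher and 1 lower 3′UTR held under the Gapdh and RLE scalings, in DESeq2, with the 4 sponge libraries alone and with counts summed per gene. Without a filter on low counts it was 4 higher and 9 lower. Leaving out any 1 sponge library gave 0 to 0 lower and 0 to 0 higher, and an arm of 1 library is then assumed to vary like the other groups. The mRNA counts ranged from 494 to 1633 higher and from 611 to 1318 lower over the mice left out. None of 240 alternative values of the named 3′UTRs changed sign. Of these, 235 kept their side of the threshold, 4 (Ttr without each library) lost it, and Frat2 passed it without the filter (-1.16, adjusted p = 0.0343, edgeR). Of 386 alternative list medians, 113 moved by more than their replicate spread and 49 changed sign. No paired analysis was possible because the replicate numbers of the RIP groups are not shared and those of the mRNA groups share fewer than 2. With 2 pools per group, the interval of the fold change lay within a 2-fold difference mainly for abundant 3′UTRs. Such a bound does not show which differences would pass the adjusted threshold. In the main fit, the abundant Frat2 missed it at a log2 fold change of -1.12 (adjusted p = 0.728, edgeR).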
